A study of Homo sapiens with 8 samples.

Results

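The cytosolic ribosomal protein genes were described across 4 treatments of BT-549 cells, a mesenchymal-like triple negative breast cancer line. Genes were chosen by symbol, RPL or RPS followed by a number with an optional A or X, together with RPLP0, RPLP1, RPLP2 and RPSA. This took in 77 of the 23228 genes listed, 46 of the large subunit and 31 of the small subunit. Cells received vehicle (DMSO), 100 nM EC359, 10 µM vorinostat, or EC359 and vorinostat together at the same doses (the combination), each for 24 h in RPMI medium with serum. EC359 is an inhibitor of the leukemia inhibitory factor receptor, and vorinostat (SAHA) is an inhibitor of histone deacetylases (HDACi). Each group had 2 RNA-seq libraries, 8 in all, from a single cell line. The labels do not say whether the 2 libraries came from separate cultures, so the p-values measure only the spread between these libraries, which may be technical.

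Ribosomal proteins are assembled with ribosomal RNA in the nucleolus into the large and the small subunit, each protein in about one copy per ribosome, so cells make their mRNAs in concert. Most of these mRNAs begin with a C followed by an unbroken stretch of C and T, the 5' terminal oligopyrimidine (TOP) motif, through which mTOR and LARP1 control their translation together. In the human genome almost every ribosomal protein gene has processed pseudogenes, near-identical copies that make short reads hard to place. Several ribosomal proteins have roles outside the ribosome, such as RPL5 and RPL11, which bind MDM2 when ribosome assembly is disturbed.

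The start of the transcript was read for each gene from the GRCh37 (hg19) genome at the start of the GENCODE canonical transcript, searching the transcribed strand for a first base C and the run of C and T that follows. The first base was C in 62 of the 77 genes (80.5%), against 10.5% of 16874 protein-coding genes of the same table. A run of at least 5 bases from that C was present in 58 (75.3%), against 4.72%. The median run in the ribosomal protein genes was 7 bases. The 30 bases around the start, 15 before it and 15 from it, are shown for 7 genes that moved with vorinostat, 5 that fell and then 2 that rose, with the run in capitals and written 5' to 3' on the transcribed strand.
RPS4X: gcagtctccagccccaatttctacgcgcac
RPL27A: ttggcgaaggccttcCTTTTTCgtctgggc
RPS6: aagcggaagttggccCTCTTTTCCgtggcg
RPL6: gccgggaccttaattCTCTTTCCCatcttg
RPL10A: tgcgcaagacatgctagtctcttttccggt
RPS16: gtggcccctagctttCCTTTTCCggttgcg
RPL18: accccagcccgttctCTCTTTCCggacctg
The windows lie at chrX:71497084-71497113 on the minus strand for RPS4X, chr11:8704324-8704353 on the plus strand for RPL27A, chr9:19380220-19380249 on the minus strand for RPS6, chr12:112847395-112847424 on the minus strand for RPL6, chr6:35436163-35436192 on the plus strand for RPL10A, chr19:39926575-39926604 on the minus strand for RPS16 and chr19:49122421-49122450 on the minus strand for RPL18. RPS4X and RPL10A have no such run at the annotated start, although stretches of C and T lie a few bases away. The other 5 carry runs of 7 to 9 bases, on both the genes that fell and the genes that rose. Of the 8 genes lower with vorinostat, given below, 6 had a run of at least 5, and of the 4 higher all 4 did.

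Gene counts were 19069450 to 24759041 per library, and 29.1% to 31.8% of the alignments that HTSeq tallied in a library were set aside because their read had more than one position. BT-549 identity was read from markers in CPM, counts per 1000000 gene counts, here without TMM scaling. The values of single ribosomal protein genes by library further below are CPM after TMM scaling. The mesenchymal genes VIM (2094 to 9107 CPM), FN1 (1915 to 4425) and SPARC (869.9 to 3521) were high. ZEB1 (44.05 to 203.8 CPM) and CDH2 (23.17 to 38.65 CPM), also mesenchymal, were lower. ESR1 and PGR stayed below 1 CPM, GATA3 at no more than 3.202 CPM and the epithelial CDH1, EPCAM, KRT8 and KRT18 at no more than 9.86 CPM. KRT8 measured 1.27 and 8.87 CPM and KRT18 0.684 and 7.73 CPM in combination libraries 1 and 2, and the part of this difference in the results was not tested. Of the markers of other cells, PTPRC and PECAM1 stayed at or below 0.717 CPM, whereas CD68 ranged from 40.5 to 258 CPM. Of the fibroblast markers, which mesenchymal lines also express, COL1A1 ranged from 1260 to 2896 CPM and DCN from 0.1616 to 1.189 CPM.

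Levels differed widely between the ribosomal protein genes. To compare genes, levels were set per length, as CPM without TMM scaling per kb of coding sequence, and averaged over the 8 libraries. RPL8, a core protein of the large subunit near the peptidyl transferase center, was highest at 2729 CPM per kb, followed by RPL30 (1709), RPL11 (1542), RPS6 (1474) and RPL26 (1184). The median gene stood at 371.9 CPM per kb, 33 genes were above 500 CPM per kb, and the 10 most counted genes held 39.8% of all ribosomal protein counts. At the other end 8 genes were below 10 CPM per kb. Among them were RPL36A (9.33), RPL17 (5.07), RPS26 (4.998), RPS27 (3.67), RPL7 (1.24), RPS10 (0.902) and RPL21 (0.0366). RPL21 had 3 counts in total, 1 each in vehicle library 1, vorinostat library 2 and combination library 2. It was 1 of 2 genes too low to test, which left 75 tested genes, 45 of the large and 30 of the small subunit.

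**Figure D1:**
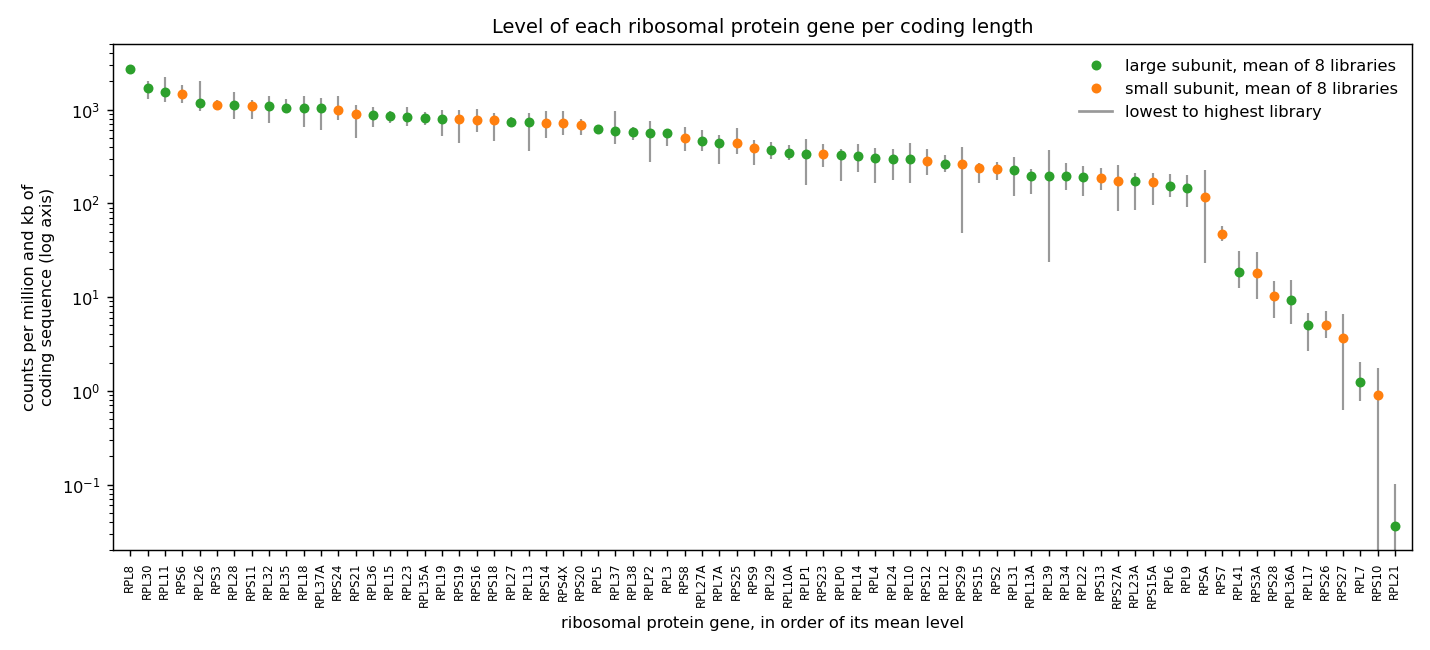
Mean level of 74 ribosomal protein genes (dots, large subunit green, small subunit orange) in CPM per kb of coding sequence on a log axis, with lines from the lowest to the highest of the 8 libraries. A line that reaches 0 is drawn to the foot of the axis. Levels fall gradually from RPL8 at 2729 to RPS7 at 46.9 and then steeply to RPL21 at 0.0366.

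All 77 genes had at least 1 annotated pseudogene named after them, so no gene was free of such copies. The 8 genes below 10 CPM per kb had a median of 43 named pseudogenes, all 77 genes a median of 14, and the 10 highest genes a median of 6.5. Over the 75 tested genes Spearman's rho between the level per kb and the number of named pseudogenes was -0.44, a description over genes that share the same libraries. Reads with more than one position were not counted, so the counts of genes with many copies can be partial and their levels are uncertain. Listed in the table were 27 ribosomal protein pseudogenes, which together held 5190 to 7256 counts per library, and 4 of them were at 0 in every library. RPSAP58, a copy of RPSA, held 2632 to 5311 of these counts and had more counts than RPSA in 7 of the 8 libraries, so the level of RPSA is uncertain. RPL36A and RPS10 also share exons with the readthrough genes RPL36A-HNRNPH2 and RPS10-NUDT3, both at 0 in every library. RPL17-C18ORF32, named after RPL17, was listed too and was also at 0 in every library. RPL10, RPL23A, RPL31, RPL32, RPL36, RPL38 and RPS28 overlap exons of a gene on the opposite strand, and reads of such a pair cannot be told apart where strand was not used.

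The libraries of a group differed more over these genes than over the genes at or above their median level, a set not matched to them in level. Over the 75 genes the SD of the log2 difference between library 1 and library 2 was 0.48 in the vehicle group, 0.83 in EC359, 0.10 in vorinostat and 0.53 in the combination group. Over all 13694 tested genes these SDs were 0.35, 0.56, 0.31 and 0.45, so that the vorinostat value was below that of all genes. Over the 924 genes at or above the median level of the ribosomal protein genes they were 0.125, 0.35, 0.054 and 0.15, each below the value for the ribosomal protein genes. The 924 include the better counted ribosomal protein genes, whereas the 75 also hold genes with few counts, such as RPS10 (0 to 18 counts). EC359 library 1 stood farthest from the median of all libraries in these genes (SD 0.682), then combination library 2 (0.482) and vehicle library 1 (0.421). In EC359 library 1, 58 of the 75 genes were lower than in library 2, and 19 (25.3%) differed by more than 1 on the log2 scale, against 7.43% of all tested genes.

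The differences between libraries followed a shared pattern. RPSA, the laminin receptor protein of the small subunit, measured 62.3 and 159.9 in vehicle, 20.6 and 193 in EC359, 125 and 136 in vorinostat and 78.5 and 40.7 in combination libraries, all in CPM. RPL39, a small protein of the exit tunnel, measured 14.9 and 43.1 in vehicle, 3.67 and 55.3 in EC359, 38.6 and 46.2 in vorinostat and 26.5 and 8.02 in combination libraries. Both genes were low in vehicle library 1, EC359 library 1 and combination library 2 and high in the other library of each of these groups. RPL11 and RPL26 went the other way in EC359, at 1199 and 648 CPM for RPL11 and 899 and 449 CPM for RPL26 in libraries 1 and 2. RPSAP58, the copy of RPSA, had 5311 and 3207 raw counts in EC359 libraries, against 500 and 3804 for RPSA. In combination libraries it had 2632 and 3048, against 1535 and 797. In vehicle libraries both were lower in library 1, at 3607 and 4089 against 1319 and 3424. Whether reads moved between RPSA and its copy was not tested. Over the 75 genes the differences in vehicle correlated with those in EC359 (Pearson's r = 0.57) and inversely with those in the combination (r = -0.80), where all tested genes gave 0.23 and -0.10. These are descriptions over genes measured in the same libraries, and genes with large differences weigh heavily on Pearson's r. RPS29 had the largest difference in vehicle (-2.58) and 2.11 in the combination, but in EC359 it measured 60.45 and 64.83 CPM. The differences in EC359 had correlations of -0.06 with the GC content of the transcript and 0.02 with coding length (Pearson's r). With the mean level they had Spearman's rho of 0.30 (r = 0.17). The log2 fold changes of vorinostat against vehicle went with GC content at r = 0.36 and rho = 0.41 over the same 75 genes. The part of these library differences in the results below was not tested, but each median is also given without EC359 library 1 and combination library 2, a choice made after seeing the data. Vehicle library 1, also low in RPSA and RPL39, was kept, so in comparisons with vehicle only the treated side changed.

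**Figure D2:**
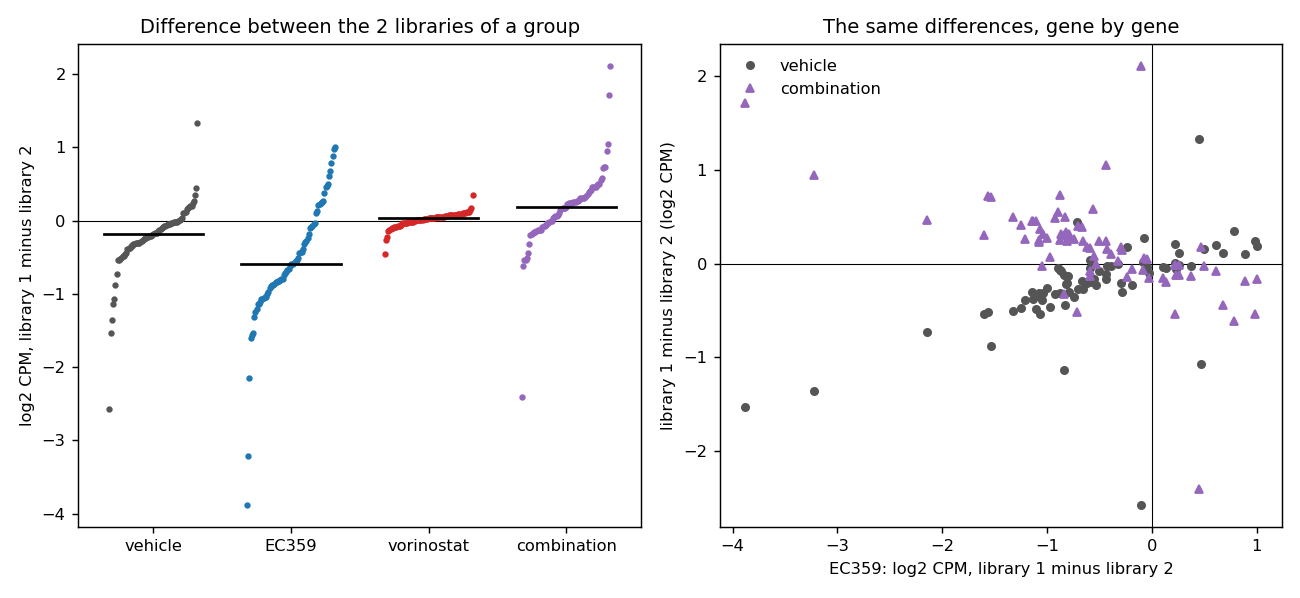
Left, difference in log2 CPM between library 1 and library 2 for the 75 tested ribosomal protein genes in each group, in order of size, with the median as a line; right, the differences in vehicle (circles) and in the combination (triangles) against those in EC359, 1 point per gene. The vorinostat libraries lie close to 0 (SD 0.10), EC359 spreads widest (SD 0.83), and the combination slopes against EC359.

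The share of all gene counts that fell on the 77 genes measured their summed mRNA without any scaling factor. Vehicle libraries gave 2.04% and 2.22%, EC359 libraries 1.93% and 2.36%, vorinostat libraries 2.25% and 2.20%, and combination libraries 1.999% and 1.94%. The means were 2.13% ± 0.124 (SD, n = 2), 2.15% ± 0.302, 2.23% ± 0.0307 and 1.97% ± 0.0443. Both combination libraries were below both vehicle and both vorinostat libraries but above EC359 library 1. The 4 libraries with vorinostat differed by -0.0422 percentage points from the 4 without it (exact permutation test, two-sided, p = 0.686). The 4 libraries with EC359 differed by -0.123 percentage points from the 4 without it (exact permutation test, two-sided, p = 0.371). The smallest p this design allows is 0.0286, and 2 libraries against 2 were not tested, since a permutation test of that size cannot reach the threshold. Large subunit genes took 1.26% to 1.49% of counts and small subunit genes 0.654% to 0.865%. In bulk RNA, fewer cells of a type and less RNA per cell cannot be told apart.

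**Figure D3:**
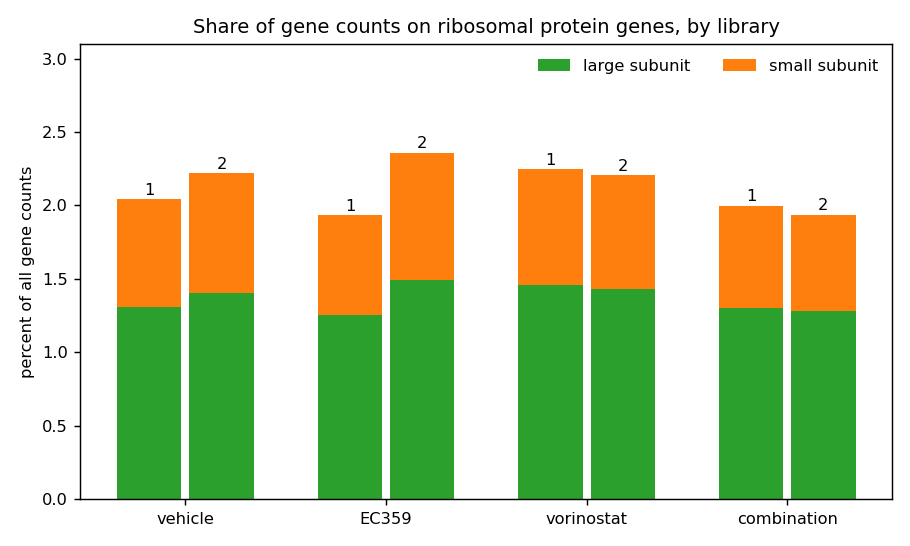
Percent of all gene counts on the 77 ribosomal protein genes in each library, stacked by large (green) and small (orange) subunit, with the library number above each bar. The bars reach between 1.93% and 2.36%, and the EC359 libraries are the lowest and the highest of the 8.

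Vorinostat against vehicle asked what the HDACi alone did to these genes. Among the 75 genes, 4 rose (among them RPS27, RPS16 and RPL18) and 8 fell (RPL36A, RPL6, RPS4X, RPL27A, RPL14, RPS6, RPL10A and RPL30) at an adjusted p below 0.05 (edgeR's quasi-likelihood test, Benjamini-Hochberg over all tested genes). Of all 13694 tested genes, 33.4% rose and 32.2% fell. No ribosomal protein gene met the stricter rule that the study used, an adjusted p below 0.01 with a log2 fold change beyond 1, which 30.1% of all tested genes met. The median log2 fold change was 0.04 over the 75 genes and 0.03 over all tested genes. The middle 50% of the ribosomal protein genes lay between -0.16 and 0.26, and of all tested genes between -0.64 and 0.81, and 15 of the 75 genes (20.0%) had a value beyond 0.5 in either direction against 62.6% of all tested genes. The median SE was 0.23 for the ribosomal protein genes and 0.16 for all tested genes.

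RPS4X, a small subunit protein encoded on the X chromosome, had the lowest adjusted p. It measured 675 and 671 in vehicle, 782 and 673 in EC359, 443 and 434 in vorinostat and 443 and 448 in combination libraries, all in CPM. All 4 libraries with vorinostat lay below all 4 without it, and the pairs with vorinostat were nearly equal. The log2 fold change against vehicle was -0.62 (SE 0.09, edgeR adjusted p = 0.00026), and the call held in 17 of 17 alternative settings. RPL6, a large subunit protein, measured 166 and 175 in vehicle, 111 and 158 in EC359, 112 and 106 in vorinostat and 124 and 105 in combination libraries. It was lower in both vorinostat libraries than in both vehicle libraries, and EC359 library 1 was as low as vorinostat (log2 fold change -0.65, SE 0.16, edgeR adjusted p = 0.0056). RPL27A, also of the large subunit, measured 230.0 and 233 in vehicle, 272 and 226 in EC359, 166 and 160.3 in vorinostat and 169.7 and 185 in combination libraries. The groups with vorinostat did not overlap those without it (log2 fold change -0.51, SE 0.10, edgeR adjusted p = 0.0023). RPS6, the small subunit protein phosphorylated by S6 kinase, measured 1247 and 1149 in vehicle, 1393 and 1163 in EC359, 909.8 and 866 in vorinostat and 1039 and 1046 in combination libraries. All 4 libraries with vorinostat lay below the other 4, with the combination in between (log2 fold change -0.43, SE 0.10, edgeR adjusted p = 0.0038). The calls of RPL6, RPL27A and RPS6 also held in 17 of 17 settings.

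Among the other genes that fell, RPL30, a large subunit protein, measured 644 and 688 in vehicle, 659 and 671 in EC359, 539 and 507 in vorinostat and 472 and 527 in combination libraries, with no overlap between the libraries with and without vorinostat (log2 fold change -0.35, SE 0.09, edgeR adjusted p = 0.0063). RPL10A measured 269 and 223 in vehicle, 227 and 238 in EC359, 199 and 183 in vorinostat and 226 and 217 in combination libraries, where the combination libraries lay above both vorinostat libraries, overlapped vehicle and were below both EC359 libraries (log2 fold change -0.37, SE 0.11, edgeR adjusted p = 0.013). RPL14 measured 241 and 209 in vehicle, 283 and 243 in EC359, 166 and 164 in vorinostat and 146 and 213 in combination libraries, where combination library 2 lay above vehicle library 2 (log2 fold change -0.45, SE 0.17, edgeR adjusted p = 0.039). RPL36A was low throughout at 4.49 and 3.27 in vehicle, 2.8 and 4.67 in EC359, 1.8 and 1.61 in vorinostat and 2.05 and 2.96 in combination libraries (log2 fold change -1.18, SE 0.34, edgeR adjusted p = 0.013). RPL10A and RPL30 kept their calls in 15 of 17 settings, RPL36A in 14 and RPL14 in 8.

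Of the genes that rose, RPS16, a small subunit protein close to the decoding site, measured 277 and 310.2 in vehicle, 259.5 and 381 in EC359, 435 and 413 in vorinostat and 336 and 319 in combination libraries, and the combination fell within the range of EC359 (log2 fold change 0.53, SE 0.16, edgeR adjusted p = 0.015). RPL18, of the large subunit, measured 485 and 557 in vehicle, 372 and 561 in EC359, 766 and 728 in vorinostat and 657 and 584 in combination libraries, with all libraries with vorinostat above those without (log2 fold change 0.52, SE 0.17, edgeR adjusted p = 0.023). The calls held in 14 of 17 settings for RPS16 and RPL18. With vehicle library 1, vorinostat library 1 or vorinostat library 2 left out in turn, none of the 75 genes was called higher with vorinostat. RPS27 had only 6 and 15 in vehicle, 6 and 3 in EC359, 29 and 31 in vorinostat and 34 and 30 in combination libraries (raw counts), and it passed the filter on low counts only through the groups in which it was high, so its call is given as a description (log2 fold change 1.498, SE 0.49, edgeR adjusted p = 0.024). Named pseudogenes numbered 30 for RPS27 and 52 for RPL36A.

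**Figure D4:**
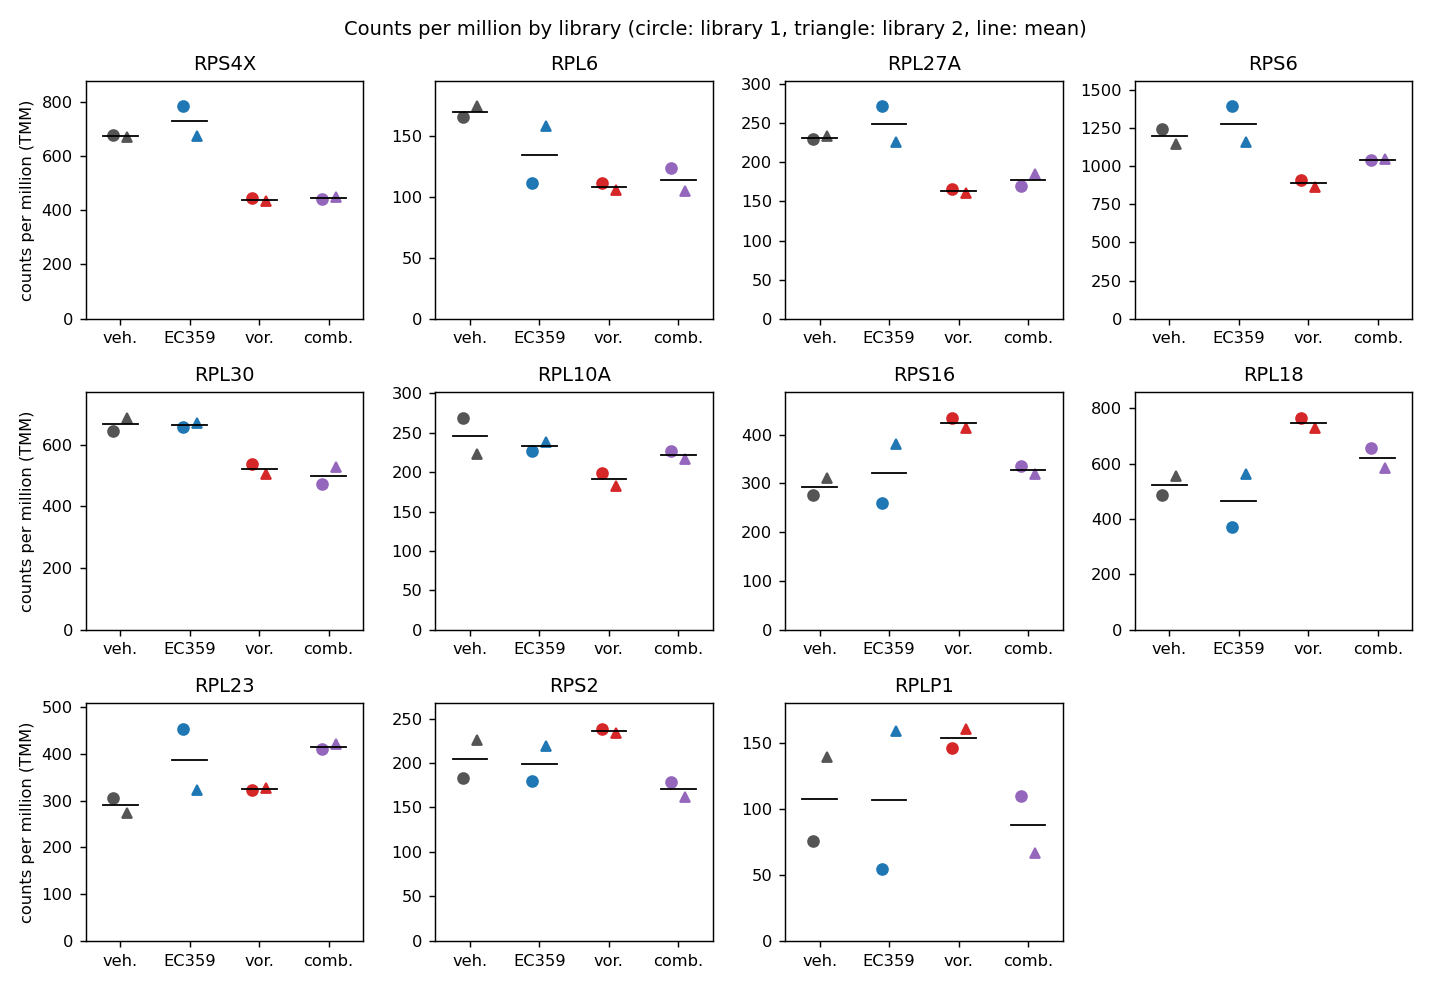
CPM after TMM scaling for 11 ribosomal protein genes, 1 panel each, by group (veh., vehicle; vor., vorinostat; comb., combination), with library 1 as a circle, library 2 as a triangle and the mean as a line. RPS4X, RPL27A, RPS6 and RPL30 are lower in all 4 libraries with vorinostat, whereas RPLP1 is low in vehicle library 1, EC359 library 1 and combination library 2.

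These counts depended on which libraries entered the fit, for a reason that was not tested. In a fit of the vehicle and vorinostat libraries alone, 22 of the 75 genes rose and 14 fell. The share of all tested genes called in that fit is not given here, so its counts cannot be set beside all genes. The median was 0.05 in that fit and 0.03 without EC359 library 1 and combination library 2. The direction of all 12 calls was the same in every setting tried.

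EC359 against vehicle asked what the receptor inhibitor alone did. None of the 75 genes was called in either direction by edgeR at an adjusted p below 0.05, and 5 had an unadjusted p below 0.05, while 8.07% of all tested genes rose and 8.6% fell. No gene met the study's rule, which 3.67% of all tested genes met. DESeq2 called 3 of the genes higher, where the share of all tested genes called is not given here. The median log2 fold change was -0.09, against -0.02 over all tested genes, and the middle 50% lay between -0.20 and 0.09. The lowest values were RPS27 (-1.25, SE 0.63), RPL23A (-0.43, SE 0.31) and RPL6 (-0.34, SE 0.16), and the highest RPS29 (0.79, SE 0.72), RPL26 (0.62, SE 0.25) and RPS28 (0.60, SE 0.39).

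The 2 EC359 libraries gave opposite pictures. With library 2 alone (without EC359 library 1) the median was 0.16. With library 1 alone the median was -0.43. Without both EC359 library 1 and combination library 2 it was 0.17. A lone library is assumed in these fits to vary like the other groups, and the sign of the median turned with the library left out.

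Combination against vehicle asked what both drugs did together. RPS27 and RPL23 rose and RPL10, RPS4X, RPL6, RPL30 and RPL27A fell, 2 and 5 of the 75 genes, against 36.4% and 32.7% of all tested genes. No gene met the study's rule, which 34.8% of all tested genes met. The median log2 fold change was -0.15, against 0.07 over all tested genes, and 50 of the 75 genes had a value below 0. With offsets for transcript length and GC content the median was 0.02, and 11 genes were called higher and 4 lower. That fit used only genes with a length and GC value, 85.2% of the tested genes. The share of these called is not given here, so the counts cannot be set beside all genes. RPL23, a large subunit protein that also binds MDM2, measured 306 and 274 in vehicle, 454 and 322 in EC359, 323 and 327 in vorinostat and 411 and 420.0 in combination libraries. Both combination libraries were above both vehicle libraries, and EC359 library 1 was above all others (log2 fold change 0.52, SE 0.14, edgeR adjusted p = 0.01). RPL10, which joins the large subunit late in its maturation, measured 183 and 266 in vehicle, 131 and 274 in EC359, 195 and 206 in vorinostat and 143 and 110.5 in combination libraries. The combination libraries were below both vehicle libraries and overlapped EC359 (log2 fold change -0.83, SE 0.31, edgeR adjusted p = 0.036). RPL23 kept its call in 14 of 17 settings and RPL10 in 11, losing it under DESeq2. RPS4X had the lowest adjusted p (log2 fold change -0.60, SE 0.09, edgeR adjusted p = 0.00028). RPS10 (-1.44, SE 1.00) and RPSA (-0.90, SE 0.81) had lower estimates than any called gene, and RPL7 (0.78, SE 0.50) and RPS28 (0.76, SE 0.39) were the next highest to RPS27, none of them called. In a fit of these groups' libraries alone, 9 genes rose and 26 fell, where the share of all tested genes called is not given here. The median was -0.18 in that fit and -0.12 without EC359 library 1 and combination library 2.

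Combination against vorinostat asked what EC359 added. Only RPS2 was called, lower in the combination, so 0 of the 75 genes rose and 1 fell by edgeR, against 15.7% and 12.7% of all tested genes. Of the 75 genes, 5 had an unadjusted p below 0.05. DESeq2 called 3 lower, where the share of all tested genes called is not given here. RPS2, at the entry of the mRNA channel, measured 183 and 226 in vehicle, 179.5 and 219 in EC359, 238 and 234 in vorinostat and 179 and 162 in combination libraries. Both combination libraries were below both vorinostat and both vehicle libraries and reached the level of EC359 library 1 (log2 fold change -0.47, SE 0.13, edgeR adjusted p = 0.026). No gene met the study's rule, which 4.25% of all tested genes met. Both combination libraries lay below both vorinostat libraries in 40 of the 75 genes, and above in 14, where 36.7% and 36.2% of all tested genes did so. The median was -0.16, against -0.01 over all tested genes, and -0.03 with offsets for transcript length and GC content. RPL39 (-1.30, SE 0.97), RPS29 (-1.23, SE 0.74) and RPSA (-1.13, SE 0.81) had the lowest values and RPL7 (0.85, SE 0.50), RPL36A (0.55, SE 0.35) and RPL26 (0.39, SE 0.25) the highest. In a fit of these groups' libraries alone, 6 genes rose and 24 fell, where the share of all tested genes called is not given here. The median was -0.15 in that fit and -0.16 without EC359 library 1 and combination library 2. With either combination library left out, RPS2 lost its call and none of the genes was called.

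Combination against EC359 asked what vorinostat added. RPS27, RPL24 and RPL3 rose and RPS4X, RPL37, RPL14, RPL27A, RPL30, RPS6 and RPL38 fell, 3 and 7 of the 75 genes, against 35.7% and 32% of all tested genes. RPS27 alone met the study's rule, which 33.7% of all tested genes met. It had 6 and 3 counts with EC359 and 34 and 30 with the combination (log2 fold change 2.97, SE 0.56, edgeR adjusted p = 0.0012), and since it passed the filter on low counts only through the groups in which it was high, its call is given as a description. RPL3, which surrounds the peptidyl transferase center, measured 664 and 676 in vehicle, 509 and 669 in EC359, 705 and 689.9 in vorinostat and 760.2 and 710.5 in combination libraries, and EC359 library 1 lay far below the others (log2 fold change 0.32, SE 0.12, edgeR adjusted p = 0.039). RPL24, at the bridge between the subunits, measured 128 and 141 in vehicle, 85.1 and 148 in EC359, 134 and 143 in vorinostat and 189 and 155 in combination libraries, with EC359 library 1 again the lowest (log2 fold change 0.56, SE 0.22, edgeR adjusted p = 0.044). RPL3 kept its call in 7 of 17 settings and RPL24 in 8, and both lost it with total counts as the scaling and without EC359 library 1. RPS4X fell with log2 fold change -0.71, SE 0.09, edgeR adjusted p = 0.0001. RPL30 (-0.41) and RPL27A (-0.49) fell here too, and RPL37 measured 168 and 156 in vehicle, 283 and 177 in EC359, 139.5 and 138 in vorinostat and 131 and 178 in combination libraries (log2 fold change -0.58, SE 0.21, edgeR adjusted p = 0.035). RPL38, which acts in the translation of Hox mRNAs, fell least, by 0.27 on the log2 scale. The calls held in 17 of 17 settings for RPS4X, RPL27A and RPL30, in 16 for RPL14, 14 for RPS6, 12 for RPL37 and 11 for RPL38. RPS29 (-1.49, SE 0.75), RPS10 (-1.44, SE 1.00) and RPSA (-0.84, SE 0.81) had the lowest values, none called. The median was -0.10, against 0.06 over all tested genes. With offsets for transcript length and GC content it was 0.01. Without EC359 library 1 it was -0.36, and without EC359 library 2 it was 0.20. Without both EC359 library 1 and combination library 2 it was -0.32. The 3 comparisons with vorinostat share libraries, so their values are side by side and are not independent.

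**Figure D5:**
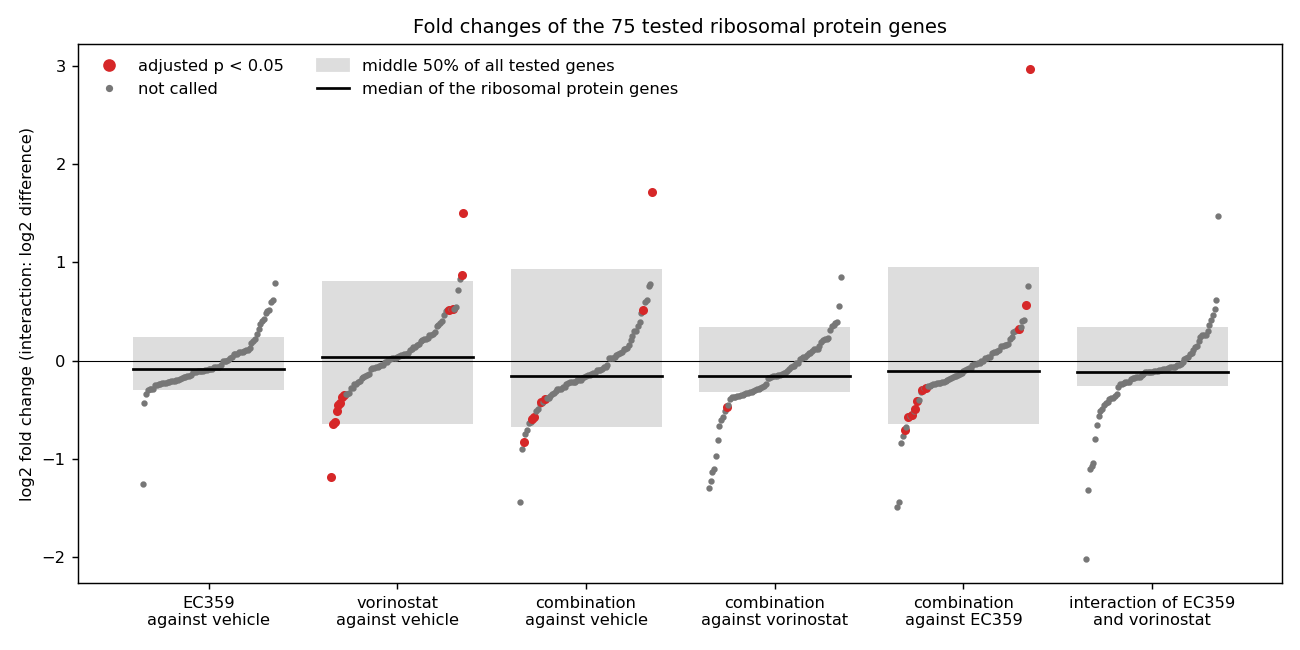
Log2 fold change of the 75 tested ribosomal protein genes in each comparison, in order of size, with genes at an adjusted p below 0.05 in red, the median as a line and the middle 50% of all 13694 tested genes in grey; the last column is the difference of the EC359 effects with and without vorinostat. In the comparisons of vorinostat or the combination with cells that lacked vorinostat most ribosomal protein genes lie inside the grey band, and RPS27 is the highest point.

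The interaction compared the EC359 effect with vorinostat to that without it. None of the 75 genes was called by edgeR, and 3 had an unadjusted p below 0.05, against 4.69% of all tested genes called higher and 2.07% lower. No gene met the study's rule, which 1.57% of all tested genes met. The median was -0.11, against 0.02 over all tested genes. The lowest values were RPS29 (-2.01, SE 1.04), RPL39 (-1.31, SE 1.35) and RPS10 (-1.10, SE 1.33), and the highest RPS27 (1.47, SE 0.77), RPL36A (0.62, SE 0.48) and RPL24 (0.52, SE 0.31). Without EC359 library 1 and combination library 2 the median was -0.33. Leaving out EC359 library 2 instead gave a median of 0.25.

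Of 19 genes listed for roles outside the ribosome or in its structure, RPS4X and RPS6 fell with vorinostat and 0 rose, where 4 of all 75 genes rose and 8 fell, beside 33.4% and 32.2% of all tested genes. RPL5 and RPL11 bind MDM2. RPL5 measured 522 and 536 in vehicle, 559 and 577 in EC359, 544 and 533 in vorinostat and 562 and 545 in combination libraries, the narrowest range among the tested genes (log2 fold change 0.03, SE 0.07, edgeR adjusted p = 0.77). RPL11 measured 669.9 and 625 in vehicle, 1199 and 648 in EC359, 839 and 821 in vorinostat and 846 and 963 in combination libraries, with EC359 library 1 the highest (log2 fold change 0.36, SE 0.23, edgeR adjusted p = 0.19). RPL26, which binds the p53 mRNA, measured 469 and 410.2 in vehicle, 899 and 449 in EC359, 409 and 418 in vorinostat and 511 and 574 in combination libraries, and EC359 library 1 again stood above the others (log2 fold change -0.09, SE 0.25, edgeR adjusted p = 0.78). RPL8, RPS3 and RPL5 varied little over the 8 libraries. RPS3, which also acts in DNA repair, measured 775 and 803 in vehicle, 949 and 864 in EC359, 805 and 778 in vorinostat and 751 and 861 in combination libraries (log2 fold change 0.01, SE 0.09, edgeR adjusted p = 0.97). RPL13A, a component of the GAIT complex that silences inflammatory mRNAs, measured 108 and 131 in vehicle, 78.8 and 129 in EC359, 129 and 138 in vorinostat and 139 and 105 in combination libraries (log2 fold change 0.16, SE 0.22, edgeR adjusted p = 0.53). RPL22, a tumor suppressor in T cell leukemia, measured 79.3 and 89.1 in vehicle, 62.9 and 93.1 in EC359, 73 and 70.4 in vorinostat and 70.8 and 47.3 in combination libraries and had its lowest value in combination library 2 (combination against vehicle, log2 fold change -0.51, SE 0.21, edgeR adjusted p = 0.057).

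The stalk proteins RPLP0, RPLP1 and RPLP2 recruit the elongation factors. RPLP0 measured 269 and 322 in vehicle, 169 and 339 in EC359, 358 and 356 in vorinostat and 352 and 291 in combination libraries. For RPLP1 the values were 75.5 and 139 in vehicle, 55 and 159.6 in EC359, 147 and 161 in vorinostat and 109.7 and 66.8 in combination libraries. For RPLP2 they were 146 and 203 in vehicle, 97.3 and 231 in EC359, 249.5 and 254 in vorinostat and 203 and 152 in combination libraries. All 3 were lower in vehicle library 1, EC359 library 1 and combination library 2 than in the other library of the group, and no change was called in any comparison (vorinostat against vehicle 0.27, 0.52 and 0.53 on the log2 scale, SE 0.26, 0.45 and 0.34). RPS19 is the gene most often mutated in Diamond-Blackfan anemia, and RPS14 is lost in a deletion form of myelodysplastic syndrome. RPS19 measured 318 and 395 in vehicle, 196 and 413 in EC359, 394 and 392 in vorinostat and 336 and 286 in combination libraries. RPS14 measured 334 and 415 in vehicle, 231 and 424 in EC359, 345 and 325 in vorinostat and 299 and 251 in combination libraries. Neither was called in any comparison. RPS25, needed by viral internal ribosome entry sites, measured 148 and 125 in vehicle, 241 and 122 in EC359, 162 and 152 in vorinostat and 146 and 212 in combination libraries. RPS27A, made as a fusion with ubiquitin, measured 75.2 and 108 in vehicle, 39.5 and 117 in EC359, 86.3 and 91.2 in vorinostat and 81 and 48.9 in combination libraries. For both, the EC359 libraries differed by more than any pair of group means. RPL41, the smallest ribosomal protein, was at 0.948 to 2.29 CPM in all libraries.

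Other genes of the ribosome and its control were counted from lists, beside a median of 0.03 over all tested genes for vorinostat against vehicle, of which 33.4% rose and 32.2% fell. Of 7 tested paralogs of ribosomal proteins, 3 rose and 3 fell with vorinostat. RPL3L, the muscle paralog of RPL3, was at 0 in every vehicle and EC359 library, at 4.89 and 4.89 CPM with vorinostat and at 13.7 and 15.1 CPM with the combination. It passed the filter on low counts only through the groups in which it was high. Its change, and any part of it in the count of paralogs that rose, is given as a description. RPS27L, a p53 target, rose with a log2 fold change of 1.38, and RPL22L1 fell with -0.88. Of 3 genes for fusion or associated proteins, 1 rose and 0 fell. Among 17 other TOP mRNAs 5 rose and 6 fell with vorinostat, with EEF2 (0.86) and EIF3L (0.62) the highest and NPM1 (-1.004) and EIF4B (-0.88) the lowest. Of 9 small nucleolar RNA host genes, which also carry TOP motifs, 1 rose (SNHG1, 0.65) and 5 fell (SNHG8 lowest, -1.12).

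Proteins that bind TOP mRNAs and the chaperones of ribosomal proteins were counted in the same comparison, beside the same 33.4% higher and 32.2% lower over all tested genes. Of 7 genes for TOP mRNA binding proteins, LARP1B rose and 5 fell with vorinostat, with a median of -1.03, including LARP1 (-1.61), which holds TOP mRNAs back from translation, and TIA1 (-1.58). Of 7 chaperone genes 6 fell and 0 rose, with a median of -0.38, including PDCD2 (-1.08), which serves RPS2, and TSR2 (-0.96), which serves RPS26. Of 76 mitochondrial ribosomal protein genes 9 rose and 38 fell, with a median of -0.36. Of 15 tested ribosomal protein pseudogenes 2 rose and 0 fell with vorinostat, and 5 rose and 1 fell with the combination, where 36.4% and 32.7% of all tested genes did. RPLP0P2 was the pseudogene that rose most with vorinostat (log2 fold change 3.04), while RPLP0 itself was not called.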

How the data were processed

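BT-549 RNA was prepared with a TruSeq total RNA kit and sequenced on an Illumina HiSeq as 50 bp single-end reads. Per the submitters' processing notes and the study's methods, the authors aligned reads to hg19 with TopHat2 2.0.8b and counted them on RefSeq genes with HTSeq. The HTSeq version, strand setting and overlap mode are not given in the sources used here. The deposited values are raw counts per gene symbol, 1 list per library. The summary lines of HTSeq were left out of gene counts.

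Genes were kept by edgeR's filterByExpr by group (13694 of 23228), scaled by TMM and tested with edgeR 4.0.16 (glmQLFit, glmQLFTest, R 4.3.3) in 1 fit of all 8 libraries, with Benjamini-Hochberg adjustment over all tested genes and a threshold of 0.05. The study's own rule was an adjusted p below 0.01 with an absolute log2 fold change above 1. Log2 CPM used a prior count of 2. DESeq2 1.42.0, other scalings, other filters and left-out libraries were alternatives. The fit code was tested on simulated data. Exact permutation tests used scipy 1.17.1. GENCODE v44lift37 on GRCh37 matched 19137 of 23228 symbols (82.4%) and gave coding lengths, which replaced the planned exon lengths because some canonical transcripts have very long 3' ends. Genes named with values were the 3 highest and 3 lowest per comparison, genes called, the extremes per length, genes with other known roles, and genes with too few counts. RPS19BP1, a protein-coding gene whose symbol fits the pattern for pseudogenes, was left out of that list. Values of a few genes are not reported here. The genes, lists and alternatives were chosen with earlier results of these data known.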

Additional observations from a re-analysis of the deposited data

How the results depend on the processing

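Under the scalings, filters and tests tried, the median log2 fold change of the ribosomal protein genes moved by less than the spread between replicates. That spread was an SD of 0.19 in their median log2 CPM, pooled over the groups. The libraries gave 7.424 and 7.897 in EC359, but 7.635 and 7.684 in vorinostat and 7.563 and 7.556 in the combination. With offsets, the median of the combination against vorinostat moved by more than the libraries of either group differed. The pooled spread was larger than every main median in size, so it does not show that the medians are stable. No call changed sign. The lower medians of the combination were smaller or turned with offsets for transcript length and GC content, from -0.15 to 0.02 against vehicle, from -0.16 to -0.03 against vorinostat and from -0.10 to 0.01 against EC359. Of 30 calls, 28 remained under DESeq2, 26 to 29 under other scalings, 29 without the filter on low counts, 22 with at least 10 counts in every library (which left RPS27 out), and 25 with offsets for transcript length and GC content.

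Counts that moved by more than 1.5 times are grouped by setting. The shares of all tested genes called in these settings and in the blocks below are not given here. DESeq2 called 3 higher in EC359 against vehicle, 4 higher in the combination against vehicle and 3 lower in the combination against vorinostat. Total counts gave 1 higher for EC359, 2 lower for the combination against vorinostat and 1 higher against EC359. No filter gave 2 higher for EC359, 2 lower against vorinostat and 12 lower against EC359. RLE and upper quartile scaling gave 2 lower against vorinostat each, and the latter 5 higher and 4 lower against EC359. At least 10 counts gave 4 lower against EC359. Length and GC offsets gave 11 higher against vehicle, 1 higher and 0 lower against vorinostat and 6 higher against EC359 for the combination. Fits of only the libraries compared gave 22 higher and 14 lower for vorinostat, and for the combination 9 higher and 26 lower against vehicle, 6 higher and 24 lower against vorinostat and 1 higher against EC359. The cause was not tested.

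The labels do not say whether the replicate numbers pair the samples. In the 75 genes the differences between libraries in vehicle, EC359 and vorinostat went together (Pearson's r of 0.40 to 0.57). Those in the combination ran against them (r of -0.80 with vehicle, -0.60 with EC359 and -0.53 with vorinostat). With the replicate number as a block 29 of the 30 calls remained and 5 genes were higher in the combination against EC359. With the combination's numbers exchanged in the block (chosen after seeing the data), calls were 3 higher for EC359, 8 higher for vorinostat, and for the combination 5 higher and 12 lower against vehicle, 1 higher and 7 lower against vorinostat and 5 higher and 11 lower against EC359.

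Without EC359 library 1 and combination library 2, counts were 9 higher for EC359 (median 0.17), 19 higher and 14 lower for vorinostat, 8 higher and 23 lower for the combination against vehicle, 6 higher and 12 lower against vorinostat, 5 higher and 41 lower against EC359 (median -0.32), and 19 lower for the interaction (median -0.33). Leaving out each library in turn gave 0 to 12 higher, 0 to 40 lower and a median of -0.43 to 0.16 for EC359 against vehicle. For vorinostat against vehicle it gave 0 to 15 higher, 4 to 12 lower and a median of -0.03 to 0.12. For the combination it gave 1 to 10 higher and 2 to 26 lower against vehicle, 0 to 6 higher and 0 to 21 lower against vorinostat, and 1 to 29 higher, 6 to 41 lower and a median of -0.36 to 0.20 against EC359. For the interaction it gave 0 to 12 higher, 0 to 19 lower and a median of -0.33 to 0.25. The high counts came mostly from fits without 1 of the EC359 libraries. The shares of all tested genes called in these fits with libraries left out are not given here. Whether any of these counts exceeds the share over all genes therefore cannot be told. The vorinostat share difference was -0.111 to 0.0311 percentage points (0.00922 without the 10 most counted other genes, exact permutation p = 0.914, and 0.0656 for the 33 genes with fewer than 10 named pseudogenes, exact permutation p = 0.429). A version restricted to genes without a named pseudogene could not give a value, because every gene had one. RPS10, RPS27, RPL7 and RPL21 were counted at most 34 times in any library, so their values are uncertain. Named pseudogenes numbered 14, 30, 61 and 133 for them, and reads with more than one position were not counted. The part of depth and of such reads in these low counts was not tested.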
